A study of Mus musculus with 18 samples.

Results

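The *Bcl2* family decides at the outer mitochondrial membrane whether a cell lives or dies, and 10 of its genes were described here in mouse oocytes at the primordial follicle, primary follicle and ovulated metaphase II (MII) stages. The genes were chosen by name: the survival genes *Bcl2*, *Bcl2l1*, *Bcl2l10* and *Mcl1*, the effectors *Bax* and *Bak1*, and the BH3-only genes *Bbc3*, *Pmaip1*, *Bcl2l11* and *Bid*. These roles were assigned by list, and the function of no gene was tested here. All 10 were found by symbol among the 28252 genes with TPM values (transcript levels scaled for gene length and library size) and by identifier among the 53715 genes with read counts, in 18 libraries.

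The libraries came from F1 mice labelled C57Bl/6j x CBA/J, 3 in each of 6 groups, with no transgene, deletion or drug treatment given in the labels. For the follicle stages, laser capture microdissection (LCM) took oocytes from fixed paraffin sections, and RNA from the caps of a stage was pooled. The ovaries came from 14-day-old mice (*in vivo*) or from 7-day-old mice and were cultured for 7 days (*in vitro*). By the methods, the culture medium held fetal bovine serum, recombinant follicle stimulating hormone (FSH), insulin, transferrin and selenium. Each MII library was made from 10 oocytes. They were collected from adult mice superovulated with human menopausal gonadotrophin and hCG (*in vivo*) or from follicles of cultured ovaries (*in vitro*). Those follicles were grown for 12 more days in alginate, again with serum, FSH, insulin, transferrin and selenium, and induced to ovulate with hCG. LCM RNA was amplified and made into libraries by exon capture, whereas MII RNA went through Smart-seq II, so between LCM and MII oocytes stage, fixation and library method cannot be told apart, and values are set side by side without a test.

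Survival proteins of the family hold the effectors in check. BH3-only proteins, made or switched on after stress, bind the survival proteins or the effectors, and the freed effectors form pores that release cytochrome c and start the caspases. In the ovary this balance is known for setting how many oocytes die, both when the primordial pool is formed and when DNA is damaged.

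The total count per library was 15149564 to 29205503 in LCM and 7334817 to 9978830 in MII libraries. A floor of 3 counts corresponded to 0.103 to 0.198 CPM (counts relative to the total of their library) in LCM and 0.301 to 0.409 CPM in MII libraries, and covers counting error only. LCM libraries held reads of 6048 to 13755 genes and replicates correlated with a Spearman's rho across genes of 0.622 to 0.843, against 14512 to 18239 genes and 0.871 to 0.893 in MII libraries. The labelled cell type was checked by its markers: 11 to 13 of 13 were above the floor in each library, with summed levels of 329 to 1953 TPM in LCM and 6707 to 15981 TPM in MII libraries. LCM libraries also held reads of markers of other ovarian cells. Of 10 stroma and theca markers, 4 to 10 were above the floor in each LCM library, at 453 to 29938 TPM in sum against 1.30 to 5.02 TPM in MII libraries. Of 10 granulosa markers, 2 to 9 were above the floor in LCM libraries (10.6 to 2233 TPM) and 3 to 7 in MII libraries (30.3 to 76.5 TPM). Of 8 endothelium and blood markers, up to 4 were above the floor in LCM libraries (0 to 7504 TPM) and 2 to 3 in MII libraries (36.1 to 105 TPM), with *Ptprc* and *Adgre1* at 0 in all libraries. By median over LCM libraries, stroma and theca markers (1053 TPM) summed to more than oocyte markers (576 TPM). Granulosa markers were at 520 TPM and endothelium and blood markers at 36.1 TPM. In primary *in vivo* replicate 2, stroma and theca markers were at 29938 TPM against 610 TPM for oocyte markers. LCM values below are those of such mixed libraries, and the part of other cells was not tested. In bulk samples, fewer cells of a type and less RNA per cell cannot be told apart.

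The feature that joins the family is the BH3 helix, by which one member docks on another. Its core reads leucine, any 3 residues, glycine or alanine, and aspartate, and a search of the coding sequence of one GENCODE M21 transcript per gene found it once in each of 8 members. The 45 coding bases around it are shown 5′ to 3′ on the coding strand, with the codons of leucine, glycine (alanine in *Bbc3*) and aspartate in capitals, because they are what survival, effector and BH3-only genes share.
Bcl2: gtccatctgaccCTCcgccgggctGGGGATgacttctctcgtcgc
Bcl2l1: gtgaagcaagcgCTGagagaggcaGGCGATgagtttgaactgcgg
Mcl1: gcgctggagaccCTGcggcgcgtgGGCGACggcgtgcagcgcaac
Bax: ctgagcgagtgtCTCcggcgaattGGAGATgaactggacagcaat
Bak1: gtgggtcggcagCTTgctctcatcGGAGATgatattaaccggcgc
Bbc3: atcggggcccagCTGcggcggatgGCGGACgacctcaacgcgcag
Bcl2l11: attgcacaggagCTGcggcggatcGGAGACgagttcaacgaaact
Bid: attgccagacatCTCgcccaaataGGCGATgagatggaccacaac
On GRCm38 these stretches lie at chr1:106712569-106712613 (minus strand, *Bcl2*), chr2:152829691-152829735 (minus, *Bcl2l1*), chr3:95659424-95659468 (plus, *Mcl1*), chr7:45465991-45466035 (minus, *Bax*), chr17:27022525-27022569 (minus, *Bak1*), chr7:16313761-16313805 (plus, *Bbc3*), chr2:128147138-128147182 (plus, *Bcl2l11*) and chr6:120897283-120897327 (minus, *Bid*), each within 1 coding exon. The pattern is short and was also found in 5164 of 21549 coding genes searched (24.0%), so a match is a description and not a test. In *Pmaip1* it was found 2 times, and its sequence is not shown.

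In *Bcl2l10* no stretch matched these letters. Its coding sequence of 573 bases (191 codons) lies on chromosome 9, plus strand, and its first 90 bases (chr9:75347903-75347992, GRCm38) are shown with the start codon in capitals, because *Bcl2l10* was by far the most abundant of the 10 genes in MII oocytes.
Bcl2l10: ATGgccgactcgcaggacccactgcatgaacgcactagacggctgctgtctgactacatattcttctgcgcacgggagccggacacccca

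In MII oocytes the family was dominated by this 1 gene. *Bcl2l10*, listed here among the survival genes and known from the ovary and the oocyte, had 87206, 47445 and 57228 counts in the MII *in vivo* libraries. This is 20116, 13040 and 13864 TPM. The MII *in vitro* libraries had 88257, 55958 and 62111 counts, or 17122, 13024 and 15612 TPM. It ranked between 4 and 7 among all genes by TPM in each MII library and took 0.561% to 0.921% of all counts. The groups overlapped: the mean level was 15673 ± 3869 TPM *in vivo* and 15253 ± 2073 TPM *in vitro* (SD, n = 3 each).

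The other survival genes were at much lower levels in MII oocytes. *Bcl2l1*, which encodes Bcl-xL, was second in the order, with 1000, 1093 and 989 counts *in vivo* (61.4, 79.9 and 63.7 TPM) and 1469, 1695 and 1160 counts *in vitro* (75.8, 105 and 77.6 TPM). *Bcl2l10* was 124 to 328 times *Bcl2l1* by TPM within a library. *Mcl1*, a short-lived survival protein, had 27, 7 and 43 counts *in vivo* (2.22, 0.687 and 3.72 TPM) and 44, 45 and 45 counts *in vitro* (3.05, 3.74 and 4.04 TPM). The founding member *Bcl2* had 0 counts in all 3 MII *in vivo* libraries and 5, 19 and 0 counts in the MII *in vitro* libraries (0.129, 0.589 and 0 TPM), so only 2 of 6 MII libraries were above the floor.

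Of the effectors, *Bax* was present at a low level and *Bak1* was not detectable above the floor in MII oocytes. *Bax* had 39, 19 and 17 counts *in vivo* (6.96, 4.04 and 3.19 TPM) and 49, 42 and 30 counts *in vitro* (7.36, 7.57 and 5.84 TPM). *Bak1* had 1 count in 1 of 6 MII libraries (MII *in vitro* replicate 2, 0.118 TPM) and 0 in the others.

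Among the BH3-only genes, *Bid* and *Bcl2l11* were expressed in every MII library, whereas *Pmaip1* was above the floor in 3 of 6 and *Bbc3* in 1 of 6. *Bid*, which is cut by caspase-8 to become active, had 208, 411 and 429 counts *in vivo* (16.5, 38.8 and 35.7 TPM) and 382, 456 and 463 counts *in vitro* (25.5, 36.5 and 40.0 TPM). *Bcl2l11*, which encodes Bim, had 430, 130 and 311 counts *in vivo* (15.1, 5.43 and 11.4 TPM) and 451, 389 and 298 counts *in vitro* (13.3, 13.8 and 11.4 TPM). Both sets of libraries overlapped for each gene.
*Pmaip1*, which encodes the p53 target Noxa, had 13, 0 and 0 counts *in vivo* (1.38, 0 and 0 TPM) and 0, 58 and 7 counts *in vitro* (0, 6.22 and 0.811 TPM). *Bbc3*, which encodes the p53 target Puma, had 7 counts (0.936 TPM) in MII *in vitro* replicate 2 and 0 in the other 5 MII libraries. By TPM, MII *in vitro* replicate 2 was the highest MII library for 6 of 10 members (*Bcl2*, *Bcl2l1*, *Bax*, *Bak1*, *Bbc3* and *Pmaip1*). It also held the most genes with reads (18239, against 14512 to 16142 in the other MII libraries), and the part of this in the 6 values was not tested.

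By mean TPM over the 6 MII libraries the order was *Bcl2l10* (15463), *Bcl2l1* (77.2), *Bid* (32.2), *Bcl2l11* (11.7), *Bax* (5.83), *Mcl1* (2.91), *Pmaip1* (1.40), *Bbc3* (0.156), *Bcl2* (0.120) and *Bak1* (0.0197). Each of the first 4 genes was above the next one in 6 of 6 libraries, although *Bid* exceeded *Bcl2l11* by only 1.09 times in the closest library and by 7.15 times in the widest. *Bax* and *Mcl1* changed places in 1 of 6 libraries, as did *Mcl1* and *Pmaip1*, and *Pmaip1*, *Bbc3*, *Bcl2* and *Bak1* were at 0 in 3 or more libraries each, so the order among these neighbours lies within their spread.

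**Figure D1:**
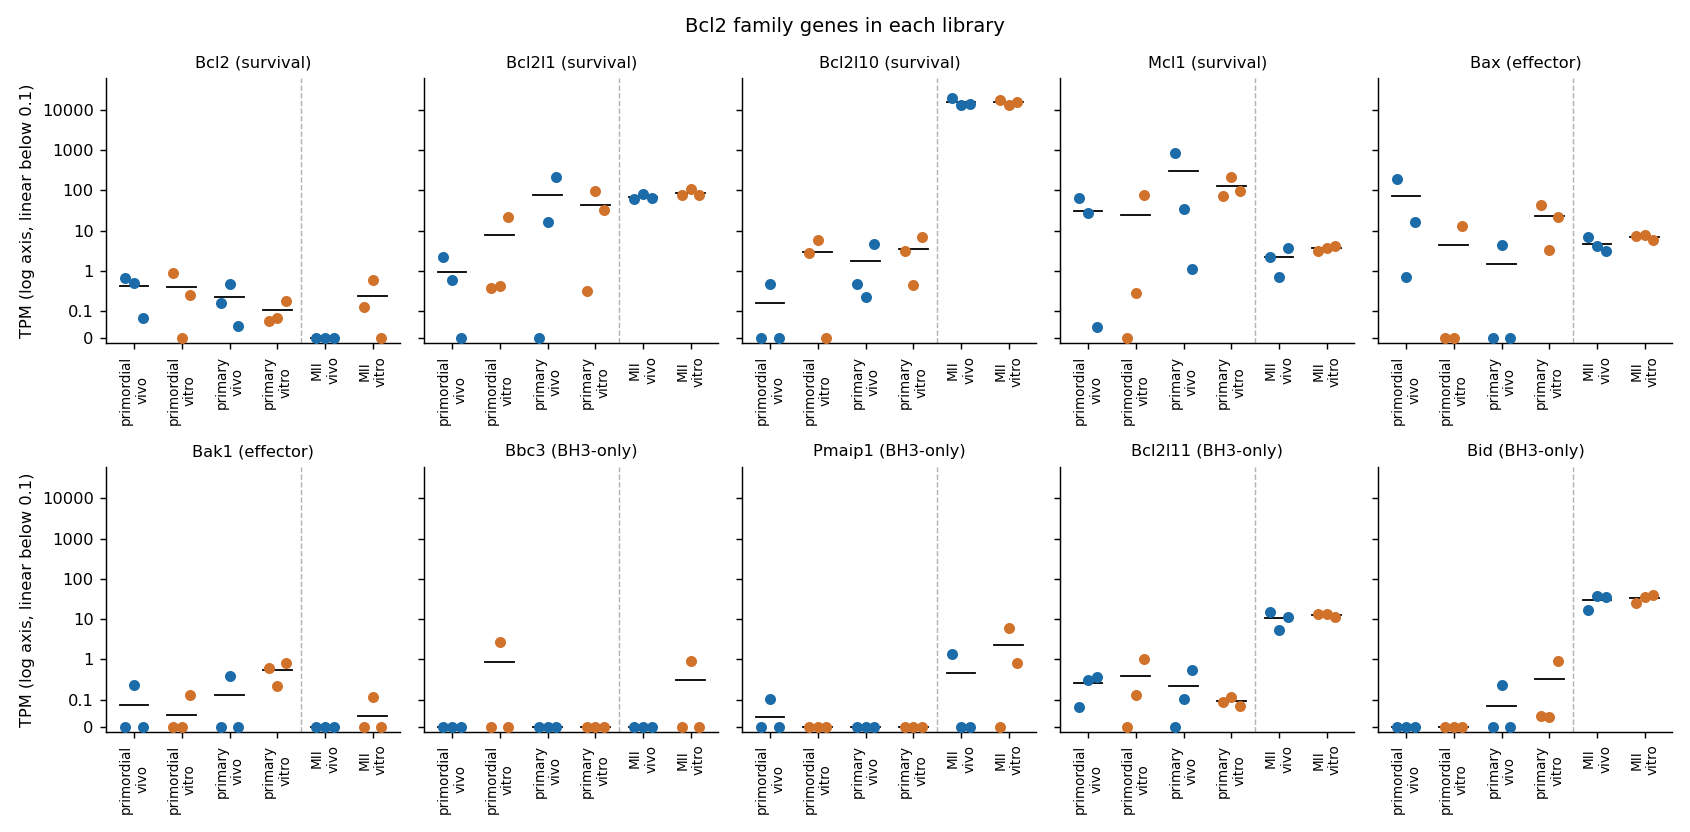
TPM of the 10 genes in each of 18 libraries (1 point per library, blue *in vivo*, orange *in vitro*, black line the mean of 3; log axis, linear below 0.1), with LCM groups left and MII groups right of the dashed line. *Bcl2l10* lies at 13024 TPM or more in all MII libraries and at 6.93 TPM or less in LCM libraries, while *Mcl1*, *Bcl2l1* and *Bax* spread from 0 to 194 TPM or more among LCM libraries.

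The test set *in vitro* against *in vivo* growth in MII oocytes, and no member was called. Age of the donor mice and hormone treatment differed along with culture, so their effects cannot be told apart. Of the 10 genes, 8 passed the filter of 10 counts in total and were tested by edgeR, where a gene was called at an adjusted p under 0.05 and a change of at least 2-fold. Of all 17144 genes tested, 60 were called (0.35%), with 10.2% at an unadjusted p under 0.05. Among the members, 0 were called and 0 had an unadjusted p under 0.05 in edgeR. DESeq2 called 0 of the 7 to which it gave an adjusted p (2.28% of all genes with one), and limma 0 of 10 (0.262% of all genes).
*Bcl2l10* differed by a log2 fold change of 0.03 (95% interval -0.83 to 0.89, edgeR adjusted p = 0.990). *Bcl2l1* differed by 0.39 (SE 0.31, interval -0.28 to 1.05, edgeR adjusted p = 0.699). The log2 fold change was 0.23 for *Bid* (-0.58 to 1.05), 0.31 for *Bcl2l11* (-0.67 to 1.28), 0.58 for *Bax* (-1.18 to 2.34) and 0.76 for *Mcl1* (-1.05 to 2.56), with edgeR adjusted p between 0.810 and 0.888. For *Pmaip1* it was 2.0 (-2.20 to 6.20, edgeR adjusted p = 0.774), and its sign rested on MII *in vitro* replicate 2, without which it was -0.38.
*Bcl2* had the smallest p of the 8 (fitted log2 fold change 5.88, SE 2.69, edgeR adjusted p = 0.492). As all *in vivo* libraries were at 0, the fitted value is no estimate of size. The *in vitro* mean, from reads in 2 of 3 libraries, was 2.31 times the floor of the *in vivo* group. The interval (-0.01 to 11.8) included 0, so this fold describes these libraries only. Of the 8 tested members, 8 had a positive log2 fold change with a median of 0.48, against a median of 0.04 over all genes tested. This sign was not stable for 4 of them: left out 1 at a time, a library turned the sign of *Bcl2l10*, *Pmaip1*, *Bcl2l11* and *Bid*. The groups did not overlap for 0 of 8 members, while they did not overlap for 16.2% of all genes tested.

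**Figure D2:**
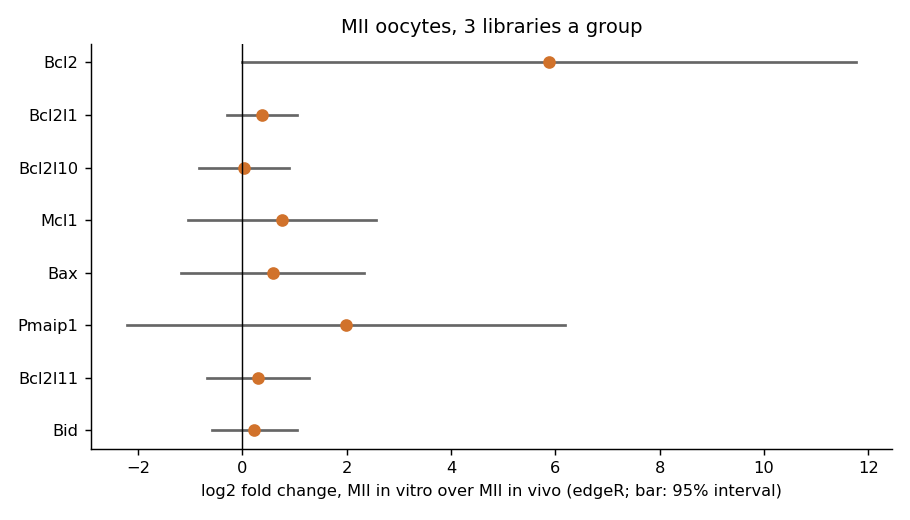
Log2 fold change of MII *in vitro* over MII *in vivo* oocytes for the 8 members tested, from edgeR with 3 libraries a group; points are estimates and bars 95% intervals. All 8 intervals include 0, and those of *Bcl2l10*, *Bcl2l1*, *Bid* and *Bcl2l11* are the narrowest.

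In LCM libraries the order was another one, and single libraries decided most values. *Mcl1* was first, with 1509, 652 and 1 counts in primordial *in vivo* libraries (64.2, 27.0 and 0.0397 TPM) and 0, 8 and 1639 counts in primordial *in vitro* libraries (0, 0.275 and 74.5 TPM). Primary *in vivo* libraries had 20519, 833 and 19 counts (864, 33.4 and 1.09 TPM) and primary *in vitro* libraries 1669, 5451 and 2670 counts (70.7, 211 and 97.2 TPM). The primary *in vitro* group was the only one whose 3 libraries were all at 70.7 TPM or more, and the groups overlapped in every comparison of 2 groups. In primary *in vivo* replicate 1, where *Mcl1* was highest, the summed endothelium and blood markers were also at their highest (7504 TPM). Oocyte markers were at 780, granulosa markers at 349 and stroma markers at 645 TPM. Their part in the value was not tested.

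*Bcl2l1* followed the same pattern of present or nearly absent. It had 68, 19 and 0 counts in primordial *in vivo* libraries (2.16, 0.587 and 0 TPM) and 8, 16 and 649 in primordial *in vitro* libraries (0.370, 0.410 and 22.0 TPM). In primary *in vivo* libraries it had 0, 559 and 4902 counts (0, 16.7 and 209 TPM), and in primary *in vitro* libraries 10, 3348 and 1172 (0.316, 96.6 and 31.8 TPM). These groups, too, overlapped in every comparison of 2 groups.

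*Bcl2l10* had few reads in LCM oocytes: 0, 4 and 0 counts in primordial *in vivo* (0, 0.465 and 0 TPM), 16, 61 and 0 in primordial *in vitro* (2.78, 5.87 and 0 TPM), 4, 2 and 29 in primary *in vivo* (0.472, 0.225 and 4.64 TPM) and 26, 4 and 68 in primary *in vitro* libraries (3.08, 0.434 and 6.93 TPM). It was above the floor in 8 of 12 libraries. *Bcl2* had 41, 32 and 5 counts in primordial *in vivo* (0.651, 0.495 and 0.0741 TPM), 39, 0 and 15 in primordial *in vitro* (0.903, 0 and 0.254 TPM), 10, 32 and 2 in primary *in vivo* (0.157, 0.479 and 0.0427 TPM) and 4, 5 and 13 in primary *in vitro* libraries (0.0632, 0.0722 and 0.177 TPM). Thus *Bcl2* was above the floor in 10 of 12 LCM libraries but never reached 1 TPM. The *Bcl2* locus overlaps an antisense gene (*D630008O14Rik*) and 2 genes on its own strand, and whether counting used strand is not stated.

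The effector *Bax* also differed widely between replicates. It had 2106, 8 and 184 counts in primordial *in vivo* (194, 0.720 and 15.8 TPM) and 0, 0 and 135 in primordial *in vitro* libraries (0, 0 and 13.3 TPM). Primary *in vivo* libraries had 0, 50 and 0 counts (0, 4.35 and 0 TPM) and primary *in vitro* libraries 459, 39 and 275 (42.2, 3.27 and 21.7 TPM). *Bax* was thus above the floor in all libraries of 2 groups and in 1 of 3 libraries of the other 2. *Bak1* stayed low everywhere, with 0, 4 and 0 counts in primordial *in vivo* (0, 0.236 and 0 TPM), 0, 0 and 2 in primordial *in vitro* (0, 0 and 0.129 TPM), 0, 7 and 0 in primary *in vivo* (0, 0.398 and 0 TPM) and 10, 4 and 16 in primary *in vitro* libraries (0.601, 0.220 and 0.827 TPM). *Bax* overlaps *Gm45808* on its own strand and *Bak1* overlaps *Ggnbp1* on the other.

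The BH3-only genes among the members were sparse in LCM oocytes. *Bcl2l11* was the most widespread, with 4, 18 and 22 counts in primordial *in vivo* (0.0725, 0.318 and 0.372 TPM), 0, 9 and 54 in primordial *in vitro* (0, 0.132 and 1.04 TPM), 0, 6 and 23 in primary *in vivo* (0, 0.102 and 0.560 TPM) and 5, 7 and 5 in primary *in vitro* libraries (0.0901, 0.115 and 0.0775 TPM). *Bid* had 0 counts in all 6 primordial libraries, 0, 6 and 0 in primary *in vivo* (0, 0.231 and 0 TPM) and 1, 1 and 26 in primary *in vitro* libraries (0.0408, 0.0373 and 0.911 TPM). *Bbc3* had 48 counts in primordial *in vitro* replicate 2 (2.65 TPM) and 0 in the other 11 LCM libraries, and *Pmaip1* had 2 counts in primordial *in vivo* replicate 2 (0.107 TPM) and 0 elsewhere. By counting error alone, a count of 0 allows a level up to the floor of 0.103 to 0.198 CPM. Loss of transcripts before sequencing is not covered, and replicates differed widely, as for *Bcl2l1* with 0 to 4902 counts in primary *in vivo* libraries. *Bbc3*, *Pmaip1* and *Bid* were not detected above the floor in most LCM libraries, which sets no upper limit on their level.

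No member was above the floor in all 12 LCM libraries, compared with 9.74% of the 19181 genes with reads there. In MII libraries 6 of 10 members were above the floor in all 6, compared with 48.2% of 21583 genes. Over the LCM libraries, the order by mean TPM was *Mcl1* (120), *Bcl2l1* (31.6), *Bax* (24.6), *Bcl2l10* (2.08), *Bcl2* (0.281), *Bcl2l11* (0.240), *Bbc3* (0.221), *Bak1* (0.201), *Bid* (0.102) and *Pmaip1* (0.00893). By median, *Mcl1* stayed first (48.8), *Bax* (3.81) came before *Bcl2l1* (1.37), and the others were at 0.468 TPM or less. No gene exceeded its neighbour in all 12 libraries. *Mcl1* was above *Bcl2l1* in 9 of 12, and *Bcl2* was above *Bcl2l11* in 6 of 12, so neighbours in this order do not differ beyond their spread.

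Side by side with MII oocytes, every MII library was above every LCM library for 3 of 10 members, *Bcl2l10*, *Bcl2l11* and *Bid*, and below for 0. Among all 25701 genes with a TPM above 0, these shares were 16.1% and 1.37%. *Bcl2l11* was at 5.43 to 15.1 TPM in MII and at 0 to 1.04 TPM in LCM libraries, and *Bid* at 16.5 to 40.0 TPM against 0 to 0.911 TPM. *Mcl1* lay the other way in most libraries: 8 of 12 LCM libraries were above the highest MII library (4.04 TPM) and 3 were below the lowest. The values come from different library methods and carry no test.

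In the LCM oocytes, 7 comparisons asked about culture (*in vitro* against *in vivo* at the primordial stage, at the primary stage and averaged over both), about activation (primary against primordial *in vivo*, *in vitro* and averaged over both) and about the difference between the culture effects of the stages (interaction). No member was called in any of them. Of the 10 genes, 9 passed the filter (*Pmaip1* did not), and edgeR called 0 of 9 in each comparison. DESeq2 gave an adjusted p to 5 of these 9 (not to *Mcl1*, *Bak1*, *Bbc3* and *Bid*) and called 0 of 5, and limma called 0 of 10.
In the background of 15317 genes edgeR called 0.0326% for culture at the primordial stage, 0% at the primary stage and 0% averaged, 0.0522% for activation *in vivo*, 0% *in vitro* and 0% averaged, and 0.104% for the interaction. In the same order limma called 0.0105%, 0.0786%, 0.0472%, 0.0314%, 0.0943%, 0.0524% and 0.0419% of all genes. DESeq2 called more, at 9.3%, 2.86%, 6.83%, 6.42%, 5.32%, 7.42% and 6.24% of the genes to which it gave an adjusted p. The coefficient of biological variation of the fit was 2.02 in LCM, against 0.726 in MII libraries. Intervals were wide accordingly: for *Mcl1*, named here because it had the most LCM counts of the members, primary against primordial oocytes differed by a log2 fold change of 3.01 averaged over both conditions (95% interval -0.28 to 6.30, edgeR adjusted p = 0.477).

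Unadjusted p was under 0.05 for 1 of 9 members in 3 of these comparisons and for 0 of 9 in the other 4, against 9.66% to 12.4% of all genes. *Bbc3* gave 2 of them from 1 library, primordial *in vitro* replicate 2: the log2 fold change was 6.79 (SE 3.38, edgeR adjusted p = 0.413) for primordial *in vitro* against *in vivo* and -6.79 (SE 3.29, edgeR adjusted p = 0.429) for primary against primordial *in vitro*. As the other groups were at 0, these are no estimates of size. The primordial *in vitro* mean, which this 1 library made, was 4.48 and 5.54 times the floor of those groups. These folds describe these libraries only. That library also had the highest summed oocyte markers of the LCM libraries (1953 TPM), beside granulosa markers at 481 and stroma markers at 461 TPM, and their part was not tested.
*Bid* was the third, for activation averaged over both conditions (log2 fold change 4.91, SE 2.12, edgeR adjusted p = 0.297). All 6 primordial libraries were at 0, and 26 of its 34 LCM counts came from primary *in vitro* replicate 3, which had the highest summed granulosa markers (2233 TPM). Their part was not tested. The primary *in vitro* mean of *Bid* was 1.87 times the floor of the primordial *in vitro* group, and replicate 3 made most of that mean. The interval of this comparison (-0.53 to 12.1) included 0, so this fold describes these libraries only. *In vivo* no fold can be given.

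Groups did not overlap for 0 of 9 members in culture at the primordial stage (6.59% of all genes), 0 of 9 in culture at the primary stage (9.99%) and 0 of 9 in activation *in vivo* (6.39%). In activation *in vitro* they did not overlap for 2 of 9 (11.2%), *Bak1* and *Bid*, each higher in primary oocytes. *Bak1* had 10, 4 and 16 counts against 0, 0 and 2, with a primary mean of 2.11 times the floor. *Bid* had 1, 1 and 26 against 0, so both rested on counts near the floor. *Bid* also overlaps *Bcl2l13* on the other strand and *Gm44260* on its own.

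Summed by the roles assigned in the list, survival genes lay above death genes in most libraries. In MII oocytes the 4 survival genes summed to 13121 to 20179 TPM, of which *Bcl2l10* was 99.2% to 99.7%, against 39.9 to 65.1 TPM for the 6 effector and BH3-only genes. Without *Bcl2l10*, the survival sum was still above the death sum in 6 of 6 libraries, but by only 1.34 to 1.71 times. The 2 growth conditions overlapped in this ratio, with 1.59, 1.67 and 1.34 *in vivo* and 1.71, 1.68 and 1.41 *in vitro*. Family genes outside the 10 members were not summed. Among them were the BH3-only gene *Bik* (17.0 to 32.2 TPM in MII libraries) and the survival gene *Bcl2l2* (0.596 to 1.70 TPM). The small excess without *Bcl2l10* therefore depends on the genes chosen.
In LCM oocytes the survival sum was above the death sum in 10 of 12 libraries, and in 9 of 12 without *Bcl2l10*. The exceptions with *Bcl2l10* were primordial *in vivo* replicate 1 (67.0 against 194 TPM) and replicate 3 (0.114 against 16.2 TPM), both with reads of *Bax* and, in replicate 3, nearly none of the survival genes. Of the 6 primary libraries 6 were above, by sums of 50.8 to 864 TPM for survival and 0 to 42.9 TPM for death genes. Among the family genes not summed, *Bcl2l2* reached 82.9 TPM and *Bad* 48.7 TPM in LCM libraries. The LCM counts therefore depend on the genes chosen as well. Summed transcript levels are no measure of protein, on which this family acts. In MII libraries the survival sum also rests on the role assigned to *Bcl2l10*.

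**Figure D3:**
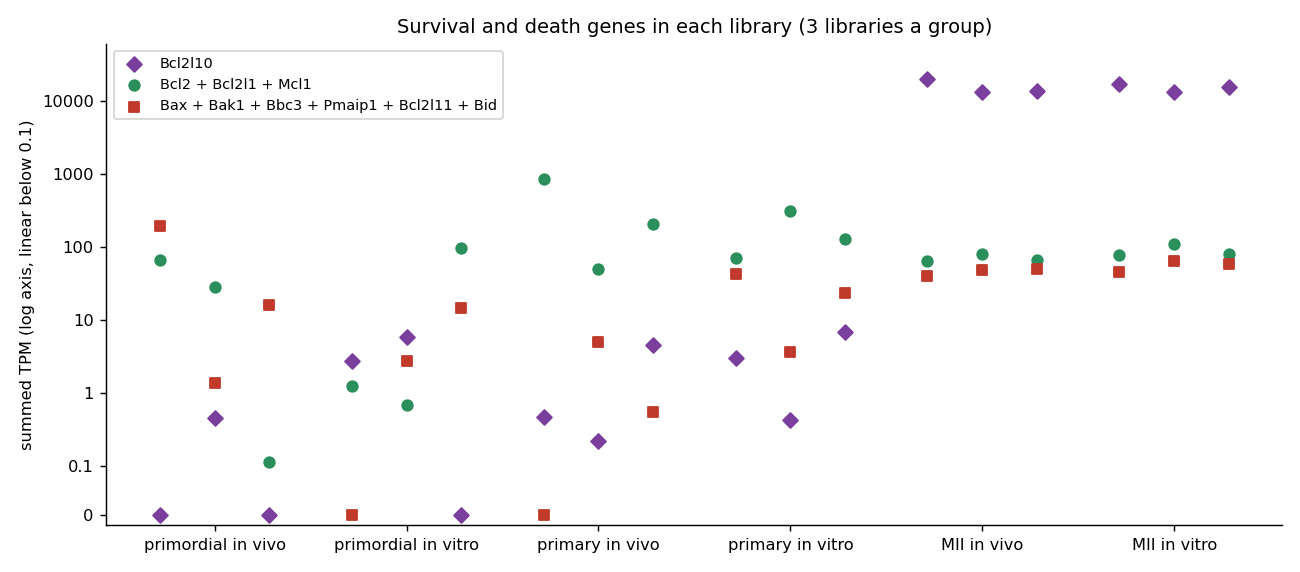
Summed TPM of *Bcl2l10* (diamonds), the other 3 survival genes (circles) and the 6 effector and BH3-only genes (squares) in each of 18 libraries (3 per group, in replicate order; log axis, linear below 0.1). In the 6 MII libraries the circles lie at 63.5 to 109 TPM just above the squares at 39.9 to 65.1 TPM, far below *Bcl2l10*, whereas in LCM libraries circles spread from 0.114 to 864 TPM and squares from 0 to 194 TPM.

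Other genes of the family were present in part in MII oocytes. Of 15 listed, 12 were found by symbol (not *Bcl2a1a*, *Bcl2a1d* and *Bcl2l14*), and 7 were above the floor in all 6 MII libraries. *Bcl2l13*, a mitochondrial member, was at 31.2 to 48.0 TPM, *Bnip3l*, a mitophagy receptor, at 24.0 to 60.2 TPM, *Bnip3* at 26.4 to 66.1 TPM and the BH3-only gene *Bik* at 17.0 to 32.2 TPM. *Bad*, *Bmf*, *Bok* and *Hrk* were listed at 0 in all MII libraries. In LCM libraries *Bnip3l* was above the floor in 12 of 12, at 59.5 to 666 TPM, whereas *Bik* had at most 2 counts. *Bad* was above the floor in 2 of 12 LCM libraries, at up to 48.7 TPM, and *Bmf* in 3 of 12, at up to 6.66 TPM.
None of the 7 tested was called between MII *in vitro* and *in vivo* by edgeR, DESeq2 or limma, with 0 at an unadjusted p under 0.05 and a median log2 fold change of 0.18. The smallest p belonged to *Bcl2l13* (log2 fold change 0.37, SE 0.31, edgeR adjusted p = 0.717) and *Bik* (-0.54, SE 0.48, edgeR adjusted p = 0.743). In the LCM comparisons edgeR called 0 of 8, with 0 to 2 at an unadjusted p under 0.05. The smallest p belonged to *Bcl2l2*, which encodes the survival protein Bcl-w, or to *Bad*, *Bmf* or *Bnip3*. *Bcl2l2* was -11.43 (SE 4.71, edgeR adjusted p = 0.380) in activation *in vivo*, 10.25 (SE 4.52, adjusted p = 0.440) in culture at the primary stage, -5.54 (SE 3.71, adjusted p = 0.509) in culture at the primordial stage and 15.79 (SE 5.82, adjusted p = 0.247) in the interaction. *Bad* was 10.77 (SE 4.49) in culture at the primary stage and also in activation *in vitro* (adjusted p of 0.440 and 0.384), and 12.54 (SE 5.33, adjusted p = 0.322) in the interaction. *Bmf* was 5.30 (SE 3.45) in culture at the primordial stage and -6.28 (SE 3.61) in activation *in vitro*, and *Bnip3* was -6.38 (SE 3.66) in activation *in vivo* and -5.89 (SE 2.53) averaged, with edgeR adjusted p of 0.295 to 0.504. For averaged effects *Bcl2l2* was 2.35 (SE 2.20) in culture and -3.53 (SE 2.36) in activation, and *Bmf* 1.32 (SE 2.20) in culture, with edgeR adjusted p of 0.630 or more. Where a group had libraries at 0, such large fitted values are no estimate of size, here and in the lists that follow.

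Downstream of the pore, 21 listed genes were all found, and 15 were above the floor in all MII *in vivo* and 16 in all MII *in vitro* libraries. The inhibitor of apoptosis *Birc3* was highest in MII oocytes (209 to 994 TPM against 0 to 3.15 TPM in LCM libraries), followed by *Birc5*, which encodes survivin (58.0 to 163 TPM against 0.249 to 4.36 TPM). *Diablo*, which encodes an antagonist of these inhibitors, was at 21.0 to 29.7 TPM, *Cycs*, the somatic cytochrome c, at 13.3 to 62.3 TPM, and *Apaf1*, the scaffold on which caspase-9 is activated, at 3.29 to 9.38 TPM. *Casp9* was at 1.74 to 5.37 TPM.
In the MII comparison edgeR called 0 of 21, with 3 at an unadjusted p under 0.05, and DESeq2 and limma also called 0. The smallest p belonged to *Dffb* (-5.91, SE 2.50, edgeR adjusted p = 0.461), which had 15 counts at most, and to *Casp8*, the caspase that cuts *Bid* (log2 fold change -1.29, SE 0.57, edgeR adjusted p = 0.472). In the LCM comparisons edgeR called 0 of 20 and 1 to 4 had an unadjusted p under 0.05. *Htra2*, a mitochondrial protease, was among the 2 smallest p in 4 of these comparisons: it was listed at 0 in 3 of 3 primordial *in vivo* libraries and 1 of 3 primordial *in vitro* libraries, with log2 fold changes of 13.67 (SE 4.77, edgeR adjusted p = 0.359) for culture at the primordial stage and 12.57 (SE 4.60, edgeR adjusted p = 0.380) for activation *in vivo*. For activation averaged over both conditions, *Casp8* was 5.92 (SE 2.47, edgeR adjusted p = 0.283), and in activation *in vitro* it was 9.33 (SE 4.05). *Htra2* was 6.47 (SE 2.55) in averaged culture and -14.40 (SE 5.29) in the interaction, beside *Casp6* at 10.58 (SE 5.33). *Casp9* was 8.21 (SE 4.02) in culture at the primordial stage and 4.94 (SE 2.45) averaged. *Endog*, a mitochondrial nuclease, was -8.42 (SE 3.54) in culture at the primary stage and 8.42 (SE 3.62) in activation *in vivo*, and its LCM reads lay in 1 library. The edgeR adjusted p of these values was 0.247 to 0.440.

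Upstream, 14 genes of the DNA damage and stress response that can switch on BH3-only genes were tested, *Ddit3* by the first of its 2 rows. In MII oocytes *Trp53*, which encodes p53, was at 31.4 to 91.7 TPM and its restraints *Mdm2* and *Mdm4* at 105 to 264 and 162 to 480 TPM. *Trp63*, whose product guards the genome of resting oocytes, was at 7.21 to 14.4 TPM in MII and at 0.0420 to 91.0 TPM in LCM libraries. *Chek1* was at 223 to 667 TPM in MII libraries, and *Cdkn1a*, a p53 target like *Bbc3* and *Pmaip1*, at 2.15 to 16.6 TPM. *Foxo3*, a factor that holds primordial follicles dormant, was above the floor in 12 of 12 LCM libraries at 54.7 to 996 TPM.
In the MII comparison edgeR called 0 of 14, with 1 at an unadjusted p under 0.05, and DESeq2 and limma called 0. *Foxo3* had the smallest p (log2 fold change -0.79, SE 0.34, edgeR adjusted p = 0.468), before *Mapk8* (-0.78, SE 0.38, edgeR adjusted p = 0.504). In the LCM comparisons edgeR called 0 of 14, with 0 to 3 at an unadjusted p under 0.05. *Jun*, an early response factor, was -14.52 (SE 4.63, edgeR adjusted p = 0.359) for culture at the primordial stage and -8.59 (SE 2.67, edgeR adjusted p = 0.188) for culture averaged. *Ddit3* was 10.41 (SE 3.17, edgeR adjusted p = 0.157) for activation averaged, 10.52 (SE 4.48) *in vivo* and 10.30 (SE 4.50) *in vitro*. *Jun* was also 11.21 (SE 4.16) in activation *in vitro*, 5.29 (SE 2.28) averaged and 11.85 (SE 4.71) in the interaction, beside *Mapk8* at 4.60 (SE 3.47). *Atm*, the kinase that senses DNA breaks, was -6.61 (SE 3.45) in culture at the primordial stage and -4.43 (SE 2.20) averaged. *Trp73* was 4.09 (SE 3.12) and *Chek2* 3.52 (SE 3.29) in culture at the primary stage, and *Chek2* -6.67 (SE 3.84) in activation *in vivo*. The edgeR adjusted p of these further values was 0.292 to 0.836. For these 3 lists limma called 0 genes in any comparison, and DESeq2 called 8 genes (*Bad*, *Bcl2l2*, *Birc2*, *Casp9*, *Htra2*, *Atm*, *Ddit3* and *Jun*) in LCM comparisons and 0 in the MII comparison. These 8 genes gave 19 calls among 219 adjusted p-values over the 7 LCM comparisons (8.68%), near the 6.36% that DESeq2 called over all genes. The lists were chosen with earlier results of these data known.

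The 5 genes whose pattern was most like that of *Bcl2l10*, by Pearson's r of log2(TPM + 1) over the 18 libraries among 14159 genes, were *Tcl1b1*, *Rfpl4*, *Oosp1*, *Gm45886* and *Omt2b* (r of 0.997, 0.996, 0.995, 0.995 and 0.995, a description). The points share the step between LCM and MII libraries. Within the 6 MII libraries r was 0.187 to 0.634, and within the 12 LCM libraries 0.798 to 0.879. Like *Bcl2l10* they were high in all MII libraries (*Tcl1b1* at 2606 to 5171, *Rfpl4* at 3760 to 5893 and *Oosp1* at 3734 to 5564 TPM) and at 6.81 TPM or less in LCM libraries. *Tcl1b1* belongs to a multigene family whose copies can share reads, so its counts are uncertain.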

How the data were processed

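RNA-seq of 18 mouse libraries was analysed, 3 in each of 6 groups taken from the sample labels. Per the labels and the methods, the authors trimmed reads (Trim Galore 0.4.1), aligned them to mm10 (TopHat2) and assigned them to genes (featureCounts). The deposited counts are not normalized, and the settings for strand and for reads that map to several places are not given in the sources used here. TPM values, which the authors scaled by gene length and depth, were deposited for 28252 genes. Reads were not processed again.

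Counts were tested with edgeR 4.0.16 (R 4.3.3, TMM, glmQLFit with robust = TRUE, glmQLFTest) over genes whose counts summed to 10 or more, with Benjamini-Hochberg adjustment over all genes tested. The 12 LCM libraries shared 1 fit and the 6 MII libraries another. A gene was called at an adjusted p under 0.05 and a change of at least 2-fold. The study used DESeq2. The edgeR and DESeq2 fits were tested on simulated data, for culture at the primordial stage and in MII oocytes only. The other fits and comparisons were not. The outcome of these simulations is not reported here, so they lend no weight to a count of 0 called. A positive log2 fold change means a higher level *in vitro*, or in primary oocytes. Standard errors (SE) were computed back from the log2 fold change and the F statistic of the edgeR test. Intervals are at 95%, from these errors, so both restate the p-value and are no separate measure of error. Nothing in the sources used here says that replicates came from separate animals or cultures, so p-values measure the spread between libraries, which may be technical. In the LCM fit the test of each member had 122536 degrees of freedom, against 11.7 to 13.7 in the MII fit. The quasi-likelihood spread of the LCM fit was thus pooled over all genes. LCM p-values and intervals rest on this pooled spread and not on that of the gene itself.

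Coding sequences, coordinates and overlapping genes are from GENCODE M21 (GRCm38), to which 53620 of 53715 count rows were matched by identifier, with 10 of 10 members. The study gives Ensembl in its methods and RefSeq in its results as annotation. The members and lists were chosen with earlier results of these data known. Named genes were all members, the genes called in the other lists or else those with the 2 smallest p per comparison, and the 5 genes most like *Bcl2l10* with a mean of at least 1 TPM. Some genes that this rule names are not reported here. Other list genes named for their levels were chosen after their values were seen. Alternatives were DESeq2 1.42.0, DESeq2's size factors, no filter, at least 1 CPM in 3 libraries, limma 3.58.1 on log2(TPM + 1), a block for the replicate number, CPM for TPM, and leaving out each library. Files held 0 value columns that could not be assigned to a sample.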

Additional observations from a re-analysis of the deposited data

How the results depend on the processing

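The count of members called was 0 in all 8 comparisons under each alternative tried: DESeq2, its size factors, no filter, the stricter filter, limma, the replicate block and each library left out in turn. Over all genes the counts did move: in the MII comparison 60 genes were called by edgeR, 337 by DESeq2, 263 with no filter on low counts and 11 to 378 with 1 library left out, and in the LCM comparisons 0 to 16 by edgeR and 244 to 812 by DESeq2. The cause was not tested. DESeq2 gave no adjusted p for *Mcl1*, *Bak1*, *Bbc3* and *Bid* in the LCM comparisons nor for *Bcl2* in the MII comparison, so its count of 0 does not cover them. The stricter filter removed *Bak1*, *Bbc3*, *Pmaip1*, *Bcl2l11* and *Bid* from the LCM comparisons and *Bcl2*, *Pmaip1*, *Bak1* and *Bbc3* from the MII comparison. Its count of 0 does not cover these genes there. Of the log2 fold changes recomputed, 134 kept their direction and stayed uncalled, and 7 turned: *Bcl2l10* in MII oocytes was -0.021 with limma and ranged from -0.26 to 0.37 with 1 library left out, *Pmaip1* from -0.38 to 7.28, *Bcl2l11* from -0.031 to 0.78 and *Bid* from -0.0095 to 0.43. The cause was not tested. Replicate numbers did not pair the libraries: deviations of same-numbered libraries correlated at -0.062 to 0.099 in LCM and -0.032 to 0.0087 in MII oocytes, and with the replicate block 0 members were called and 85 genes in the MII comparison. With DESeq2's size factors the median log2 fold change of all genes moved from 0.91 to 0.61 in the interaction, from 0.44 to 0.17 in culture at the primary stage, from 0.44 to 0.21 in activation *in vitro* and from 0.15 to 0.02 in averaged culture. CPM in place of TPM leaves gene length uncorrected, and no order between genes was taken from it. For *Bbc3*, *Pmaip1*, *Bid* and *Bak1* most LCM counts were at or under the floor of 3, although LCM libraries had more counts in total than MII libraries.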
